A study of Mus musculus with 20 samples.

Results

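Leukocyte-rich and leukocyte-poor tumors were compared among 20 mouse breast tumors. The split was chosen by a score over 4 genes that white blood cells express and most other cells do not. These were Ptprc (CD45, the phosphatase on the surface of all leukocytes), Cd53 (a leukocyte tetraspanin), Laptm5 (a lysosomal protein of blood cells) and Coro1a (an actin-binding protein of leukocytes). For each tumor the score was the mean z-score of log2(CPM + 1) over these genes, where CPM is a gene's count scaled to the total of the tumor on the usual sequencing scale. The overlapping genes Yam1 and AY036118, which lie over a ribosomal RNA locus, were left out of the totals. The 6 tumors with the highest score were called leukocyte-rich and the 6 with the lowest leukocyte-poor, 12 of 20 tumors in all, and the 8 middle tumors belong to neither end.

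All tumors arose spontaneously in female [BALB/c-neuT x FVB/J] F1 mice, which carry the activated rat neu (HER2) oncogene as a transgene from the BALB/c parent. The mice, aged up to 20 weeks, bore multiple tumors, 1 tumor per mouse was taken when any of them reached the size limit, and RNA came from a small frozen piece of it. Both ends share this genotype and no treatment is given for either, so they differ by measured RNA and not by design. Tumor names carry Lo or Hi, whose meaning was not given in the sources used here, and a number. The rich end held 2 Lo and 4 Hi tumors and the poor end 3 Lo and 3 Hi tumors. Each tumor is 1 animal, so that p-values measure the spread between animals. Total counts were 47461277 to 65465755 in the rich end and 38765682 to 59519876 in the poor end, and their means did not differ detectably (exact two-sided permutation test, 6 against 6, p = 0.686). Yam1 and AY036118 took 6.29% to 18.6% of the counts in the rich end and 10.1% to 21.6% in the poor end (exact permutation p = 0.223).

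Leukocytes enter mammary tumors from the blood and include macrophages, dendritic cells, T and B lymphocytes and natural killer cells. Macrophages, dendritic cells and B cells show peptides to CD4 T cells on MHC class II molecules, whose alpha and beta chains are held by the invariant chain Cd74 until cathepsin S trims it and H2-DM loads the peptide. In bulk tissue, fewer cells of a type and less RNA per cell cannot be told apart.

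The ends lay close to each other, and the values that follow for the 4 genes describe the choice and were not tested. Ptprc was at 19.7, 27.7 and 31.7 CPM (lowest, median and highest) in the rich end and at 17.2, 20.1 and 25.6 CPM in the poor end. Cd53 was at 11.9, 13.8 and 17.9 CPM against 8.79, 9.97 and 11.4 CPM. Laptm5 was at 45.6, 48.4 and 50.5 CPM against 28.6, 35.5 and 41.2 CPM. The ends overlapped for Ptprc and not for Cd53 or Laptm5. With the TMM-scaled CPM used for the other genes, Cd53 overlapped slightly, at 11.69 in the lowest rich and 11.73 in the highest poor tumor. Coro1a was at 26.5, 30.0 and 35.5 CPM in the rich end and at 19.4, 22.1 and 24.7 CPM in the poor end, again without overlap. The means of the 4 genes differed by 1.29-fold for Ptprc to 1.41-fold for Cd53. Tumor Hi_11 was the lowest inside the rich end with a score of 0.41, and Lo_7 the highest outside it with 0.38. Lo_2 was the highest inside the poor end with a score of -0.69, and Hi_7 the lowest outside it with -0.65. Tumor Lo_3, at -1.60, stood apart from the other poor tumors, of which the next was Hi_1 at -0.91. The label therefore names a modest gradient that had no gap at either boundary.

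**Figure D1:**
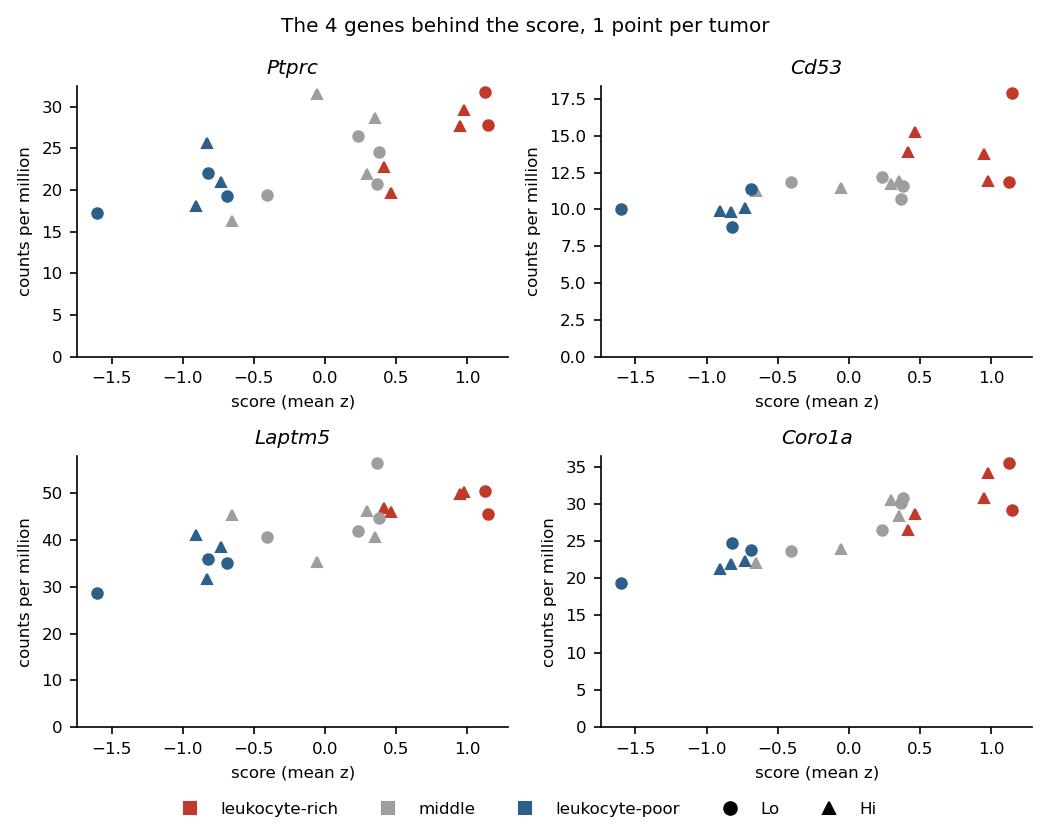
Level of each of the 4 genes that define the score (CPM, vertical axes from 0) against the score (mean z-score, horizontal axes), 1 point per tumor, red for the 6 leukocyte-rich, gray for the 8 middle and blue for the 6 leukocyte-poor tumors, circles for Lo and triangles for Hi. Points rise from left to right by construction, the ends overlap for Ptprc, and Lo_3 lies alone at a score of -1.60.

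Across all other genes, 78 were higher and 21 lower in leukocyte-rich tumors at an adjusted p under 0.05 (edgeR's quasi-likelihood test with Benjamini-Hochberg adjustment), which is 0.413% and 0.111% of the 18896 genes tested. At an unadjusted p under 0.05 there were 2852 genes, 15.1% of those tested, 1499 higher and 1353 lower. In 241 genes (1.28%) every rich tumor lay above every poor tumor and in 96 genes (0.508%) every one lay below. The median log2 fold change over all genes tested was -0.02. All 78 higher and all 21 lower genes had the same sign of difference within the Lo tumors (2 against 3) and within the Hi tumors (4 against 3), a description, since these tumors gave the calls. The number of calls was unstable. It was 5 and 0 with 5 tumors per end, 1 and 1 with Yam1 and AY036118 kept in the totals, and 0 and 0 when tumors were ranked by 25 other pan-leukocyte genes, which shared 4 of 6 rich and 5 of 6 poor tumors with the score.

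None of the 12 named genes with the largest rise belonged to a leukocyte list. Npy (neuropeptide Y), at 49822710 to 49829507 of Chr6, was at 20.1, 24.5 and 63.5 CPM (lowest, median and highest) in the rich end and at 5.15, 7.72 and 12.7 CPM in the poor end. The ends did not overlap, and Hi_11 and Hi_5 were the high rich tumors. Its log2 fold change was 2.09 ± 0.32 (SE) with an adjusted p of 0.0177 (edgeR), or 4.25-fold. Ntn1 (netrin-1, a secreted guidance protein related to laminins) was at 106, 147 and 256 CPM against 42.8, 53.6 and 85.4 CPM, without overlap, and its mean was 2.64-fold higher. Lamb3, the beta chain of the basement membrane laminin of epithelia, was at 26.2, 41.3 and 71.8 CPM against 11.1, 12.96 and 32.3 CPM. The ends of Lamb3 overlapped through Hi_4, which was the highest poor tumor. Pkp1 (plakophilin 1, a plaque protein of desmosomes) was at 59.7, 84.6 and 157 CPM against 23.8, 39.1 and 53.3 CPM. Bhlhe41, a repressor of transcription in the circadian clock, was at 62.8, 75.6 and 110 CPM against 19.7, 34.6 and 41.7 CPM, and Vdr, the vitamin D receptor, at 68.6, 100.5 and 181 CPM against 32.1, 44.9 and 65.8 CPM. Pkp1, Bhlhe41 and Vdr had log2 fold changes of 1.32, 1.24 and 1.22, and none overlapped between the ends.

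The other genes among the 12 with the largest rise were Btbd11, Fam167a, Sectm1a, Wnt5b (a secreted Wnt ligand), 2210407C18Rik and Ramp1 (a partner of the receptor for calcitonin gene-related peptide). Their log2 fold changes lay between 1.23 for Ramp1 and 1.53 for Btbd11, and none of these genes overlapped between the ends. Sel1l3 rose by more (1.79) but was below the expression minimum for naming, at 2.49 ± 0.78 CPM (SD, n = 6) in the rich end and 0.71 ± 0.29 CPM (SD, n = 6) in the poor end. Igfbp5, a secreted binding protein of insulin-like growth factors that mammary epithelium makes, was the most abundant of the genes named here that were called higher. It was named after its values were seen. It was at 5383, 7077 and 10999 CPM in the rich end and 2537, 3737 and 5034 CPM in the poor end, 1.01 ± 0.19 (SE) on the log2 scale with an adjusted p of 0.0383 (edgeR).

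**Figure D2:**
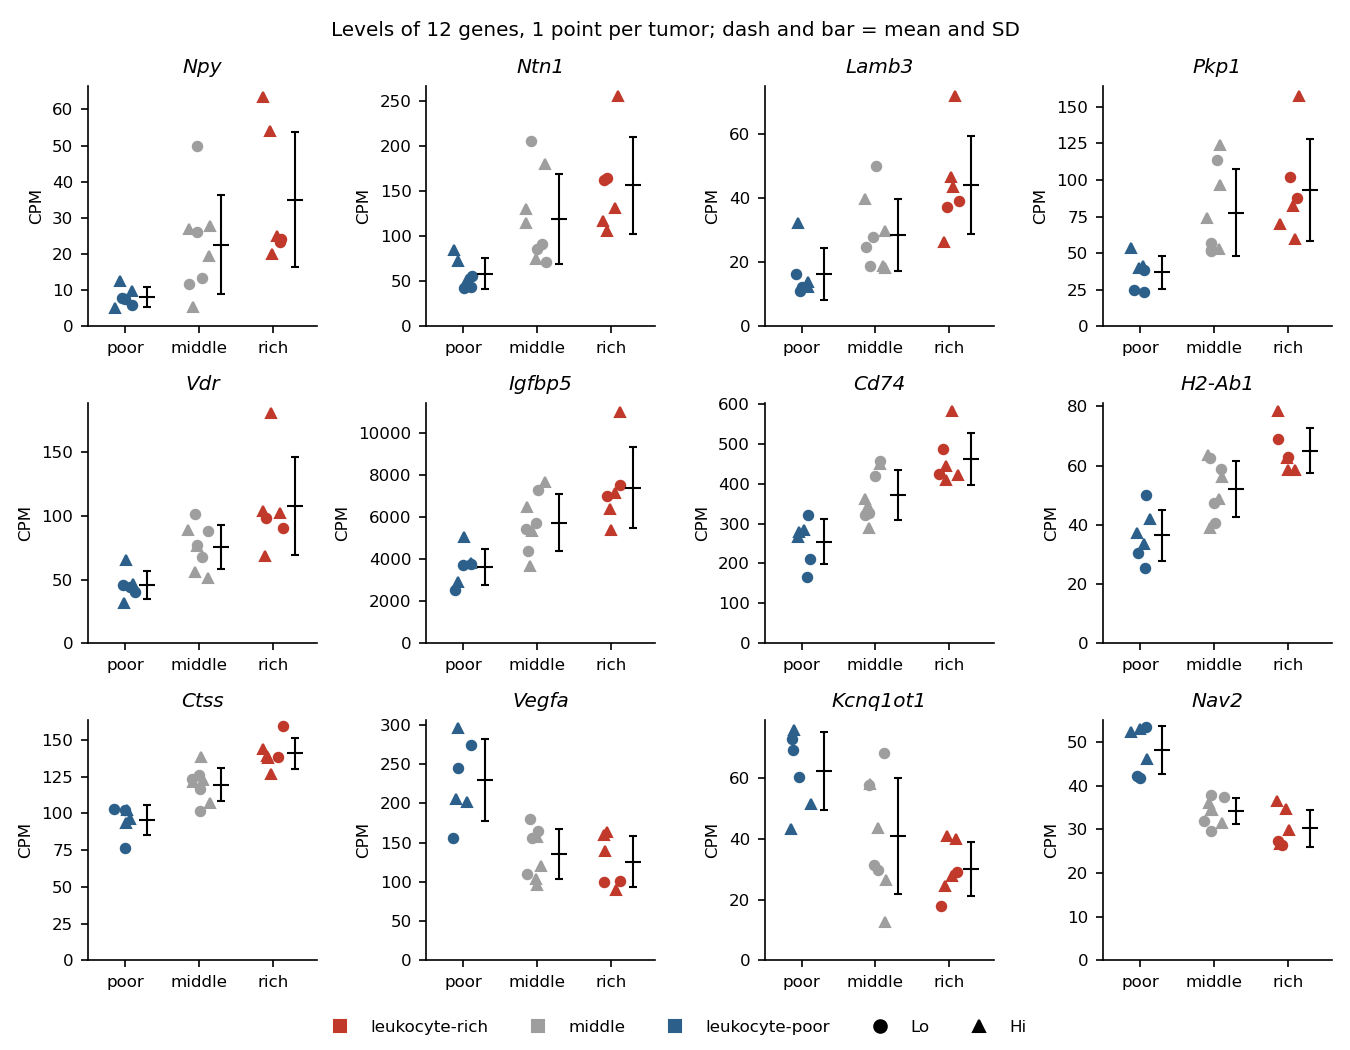
CPM (TMM-scaled, axes from 0) of 12 genes in leukocyte-poor (blue, n = 6), middle (gray, n = 8) and leukocyte-rich (red, n = 6) tumors, 1 point per tumor, circles for Lo and triangles for Hi, with a dash and bar for the mean and SD. Npy, Ntn1, Pkp1, Vdr, Igfbp5, Cd74, H2-Ab1 and Ctss separate the ends upward, Kcnq1ot1 and Nav2 separate them downward, Lamb3 and Vegfa overlap in part, and the middle tumors mostly lie between.

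Of 10 genes of MHC class II, Cd74, H2-Ab1 and H2-Eb1 were called higher in leukocyte-rich tumors. All 10 listed genes passed the filter on low counts and had a log2 fold change above 0, with a median of 0.57. In 4 of the 10 the ends did not overlap. Among all genes tested, 46.9% were above 0, 0.413% were called higher and 1.28% were higher without overlap. The list was not tested as a list, since the tumors were chosen on genes of the cells that express it. Cd74 was at 408, 434 and 581 CPM in the rich end and 166, 273 and 320 CPM in the poor end, 0.84 ± 0.15 (SE) on the log2 scale with an adjusted p of 0.0270 (edgeR). H2-Ab1, the beta chain of I-A, was at 58.4, 62.8 and 78.5 CPM against 25.6, 35.3 and 49.997 CPM. H2-Eb1, the beta chain of I-E, was at 53.6, 61.7 and 76.6 CPM against 24.01, 35.5 and 47.9 CPM. The log2 fold changes were 0.82 for H2-Ab1 and 0.83 for H2-Eb1, and no rich tumor fell to the level of any poor tumor for either. H2-Aa, the alpha chain of I-A, was at 46.4, 53.2 and 70.3 CPM against 21.7, 33.5 and 43.5 CPM and just missed the threshold (log2 fold change 0.71, adjusted p = 0.0533, edgeR). Ciita, the coactivator that switches these genes on, had a log2 fold change of 0.50 (adjusted p = 0.183, edgeR). The peptide-loading genes H2-DMa, H2-DMb1 and H2-DMb2 had log2 fold changes of 0.47, 0.17 and 0.11, with adjusted p between 0.141 and 0.696 (edgeR). H2-Oa and H2-Ob, whose products restrain H2-DM, were scarce, with means of 0.26 and 1.22 CPM in the rich end. Per length, Cd74 was at 327 RPKM (CPM per kilobase of the listed gene length) in the rich end and 180.5 RPKM in the poor end, against 39.7 and 22.3 RPKM for H2-Ab1. The summed level of the list was 617 to 866 CPM in the rich end and 274 to 509 CPM in the poor end, without overlap, and 451 to 693 CPM in the 8 middle tumors.

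Sequences upstream of 3 of these genes are shown because the genes share promoter elements in textbooks, where the Y box is one of them. They were read from RefSeq (GRCm38.p6, the mm10 build) and hold the 110 bases before the annotated start, on the gene's own strand. H2-Ab1, Cd74 and Ciita had no entry. Capitals mark GATTGG or its reverse complement CCAATC, the core of the Y box.
H2-Aa (chr17:34287824-34287933, minus strand): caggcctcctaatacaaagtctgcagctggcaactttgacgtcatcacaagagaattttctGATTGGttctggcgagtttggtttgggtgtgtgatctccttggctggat
H2-Eb1 (chr17:34305757-34305866, plus strand): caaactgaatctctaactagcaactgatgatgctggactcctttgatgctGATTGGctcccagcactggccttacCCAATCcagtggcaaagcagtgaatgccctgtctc
H2-Ob (chr17:34238795-34238904, plus strand): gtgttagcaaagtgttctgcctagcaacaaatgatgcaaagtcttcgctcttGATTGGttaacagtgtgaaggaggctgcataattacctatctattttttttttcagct
The motif begins 49 bases before the start in H2-Aa and 58 bases before it in H2-Ob, and H2-Eb1 holds 2 copies, which begin 60 and 35 bases before it. Searched on both strands over the 250 bases before the start, GATTGG was present in 7 of 7 genes of the list that the table holds and in 14.6% of all 32851 promoters. It was chosen after the values were seen. GAGGAAGT, a core bound by the leukocyte factor PU.1, was in none of the promoters of the 4 score genes and in 2.44% of all promoters. A match is a string of letters and no evidence of binding, and these letters are those of the reference strain.

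MHC class I genes, which nearly all cells express, had a log2 fold change above 0 in 13 of 13 genes with a median of 0.36. None were called, and 2 had an unadjusted p under 0.05 (edgeR), near the 15.1% among all genes tested. B2m (beta-2 microglobulin) was at 504, 651 and 1345 CPM in the rich end and 264, 375 and 1395 CPM in the poor end. The ends overlapped, with the poor tumor Lo_2 the highest of all 12 and the poor tumor Lo_8, at 583 CPM, above 3 rich tumors. H2-D1 and H2-K1 had log2 fold changes of 0.70 and 0.59 (adjusted p = 0.287 and 0.372, edgeR). Of 32 interferon-stimulated genes, 29 were above 0 with a median of 0.28, and 0 were called (edgeR, 1 at an unadjusted p under 0.05). Iigp1, an interferon-induced GTPase and the most abundant of them, was at 59.3 to 223 CPM in the rich end and 12.1 to 162 CPM in the poor end. The summed level of the interferon list reached 2672 CPM in a rich and 2682 CPM in a poor tumor, so that single tumors of both ends were high.

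Macrophage genes separated the ends in sum. This and the calls in all leukocyte lists describe the split, since the tumors were chosen on genes that these cells express. Of 25 listed genes 24 passed the filter, 21 were above 0 with a median of 0.34, and 3 were called higher. An unadjusted p under 0.05 was reached by 16 (edgeR), and 8 were higher without overlap. Among all genes tested, 46.9% were above 0, 0.413% were called higher, 15.1% had that unadjusted p and 1.28% were higher without overlap. The summed level was 1275 to 1772 CPM in the rich end and 941 to 1104 CPM in the poor end, without overlap. Ctss (cathepsin S, the protease that trims the invariant chain) was at 127, 139 and 159 CPM (lowest, median and highest) against 76.5, 99.2 and 103 CPM, 0.54 ± 0.08 (SE) on the log2 scale with an adjusted p of 0.0177 (edgeR). Mpeg1, which encodes the pore-forming perforin-2, was at 112, 133 and 144 CPM against 82.9, 94.5 and 109 CPM. Neither of these overlapped between the ends. Cd14, the coreceptor for lipopolysaccharide, had the larger difference, at 230.0, 260.0 and 530 CPM against 124, 162 and 209 CPM, but an adjusted p of 0.0548 (log2 fold change 1.01, edgeR). Lyz2 (lysozyme) had a log2 fold change of 0.52 (adjusted p = 0.0565, edgeR). Marco, a scavenger receptor of resident macrophages, had no count in any of the 12 tumors, which allows up to 3 counts in each.

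Of 25 other pan-leukocyte genes, all tested, 23 were above 0 with a median log2 fold change of 0.36 and 2 were called higher. An unadjusted p under 0.05 was reached by 19 (edgeR), and 8 were higher without overlap. Such genes move with the score by the choice of tumors, so these values describe the split. The shares among all genes tested were 46.9% above 0, 0.413% called higher, 15.1% at that unadjusted p and 1.28% higher without overlap. Cytip, which binds cytohesin in lymphoid and dendritic cells, was at 15.8, 30.2 and 42.0 CPM against 9.32, 13.3 and 17.8 CPM, and its ends overlapped. Cd48, a leukocyte adhesion molecule, was at 3.48, 4.49 and 4.90 CPM against 2.33, 2.66 and 2.91 CPM, without overlap. Their log2 fold changes were 1.12 and 0.70. Nckap1l, a leukocyte regulator of actin, had a log2 fold change of 0.36 (adjusted p = 0.0650, edgeR). The most abundant member, Lcp1 (L-plastin), had a log2 fold change of -0.15 (adjusted p = 0.677, edgeR), at 364 ± 50.2 CPM (SD, n = 6) in the rich end and 401 ± 91.9 CPM (SD, n = 6) in the poor end. It set most of the summed level, which overlapped widely at 660.2 to 752 CPM against 519 to 784 CPM. Havcr2 (TIM-3) was the 1 called gene of the checkpoint list, of which 11 of 16 genes were tested, at 4.73 to 7.15 CPM against 3.86 to 4.64 CPM (log2 fold change 0.59, adjusted p = 0.0468, edgeR).

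Of the T and B cell lists 0 genes were called, though the summed B cell level separated the ends and the T cell level did not. Of 21 T cell genes 16 passed the filter, 12 of them above 0 with a median of 0.36, and 5 had an unadjusted p under 0.05 (edgeR). For all genes tested these shares were 46.9% above 0 and 15.1% at that p. Their summed level was 19.4 to 29.1 CPM in the rich end and 20.5 to 26.4 CPM in the poor end. Cd247, the zeta chain of the T cell receptor complex, was the most abundant, with a log2 fold change of -0.05 (adjusted p = 0.907, edgeR). Cd27, a costimulatory receptor, had a log2 fold change of -0.69 (adjusted p = 0.157, edgeR). Cd247 and Cd27 were among the 4 tested genes of the list below 0, against 12 above 0, and do not stand for the list. Foxp3, the factor of regulatory T cells, was at 9.60 ± 0.98 CPM (SD, n = 6) in the rich and 9.81 ± 1.82 CPM (SD, n = 6) in the poor end. Gzmb (granzyme B) was at 0.36 to 2.35 CPM in the rich and 0.18 to 2.78 CPM in the poor end. Of 15 B cell genes 7 were tested, 5 of them above 0 with a median of 0.25 and 3 at an unadjusted p under 0.05 (edgeR). Their summed level was 35.7 to 52.1 CPM in the rich end and 23.5 to 32.3 CPM in the poor end, without overlap. Closest to being called was Blnk, a signaling adapter of B cells (log2 fold change 0.64, adjusted p = 0.0523, edgeR). Among 11 dendritic cell genes tested, 9 were above 0 and 0 were called (edgeR, 3 at an unadjusted p under 0.05). Itgax (CD11c) was at 21.3 to 32.3 CPM in the rich end and 13.8 to 20.96 CPM in the poor end, without overlap (log2 fold change 0.44, adjusted p = 0.128, edgeR).

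Of 35 chemokines 27 were tested, 21 were above 0 with a median of 0.25, and 2 were called higher (0.413% among all genes tested). Cxcl16, a membrane-bound chemokine that binds Cxcr6, was at 37.8, 41.7 and 52.7 CPM in the rich end and 26.5, 29.8 and 31.1 CPM in the poor end. Cxcl14, which epithelium and stroma make, was at 72.8, 91.7 and 116 CPM against 42.6, 53.2 and 62.8 CPM. Neither overlapped between the ends, and the log2 fold changes were 0.55 and 0.80. Of 19 cytokine genes tested, 8 were above 0 with a median of -0.04, and 0 were called. An unadjusted p under 0.05 was reached by 3 (edgeR), near the 15.1% among all genes tested.

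**Figure D3:**
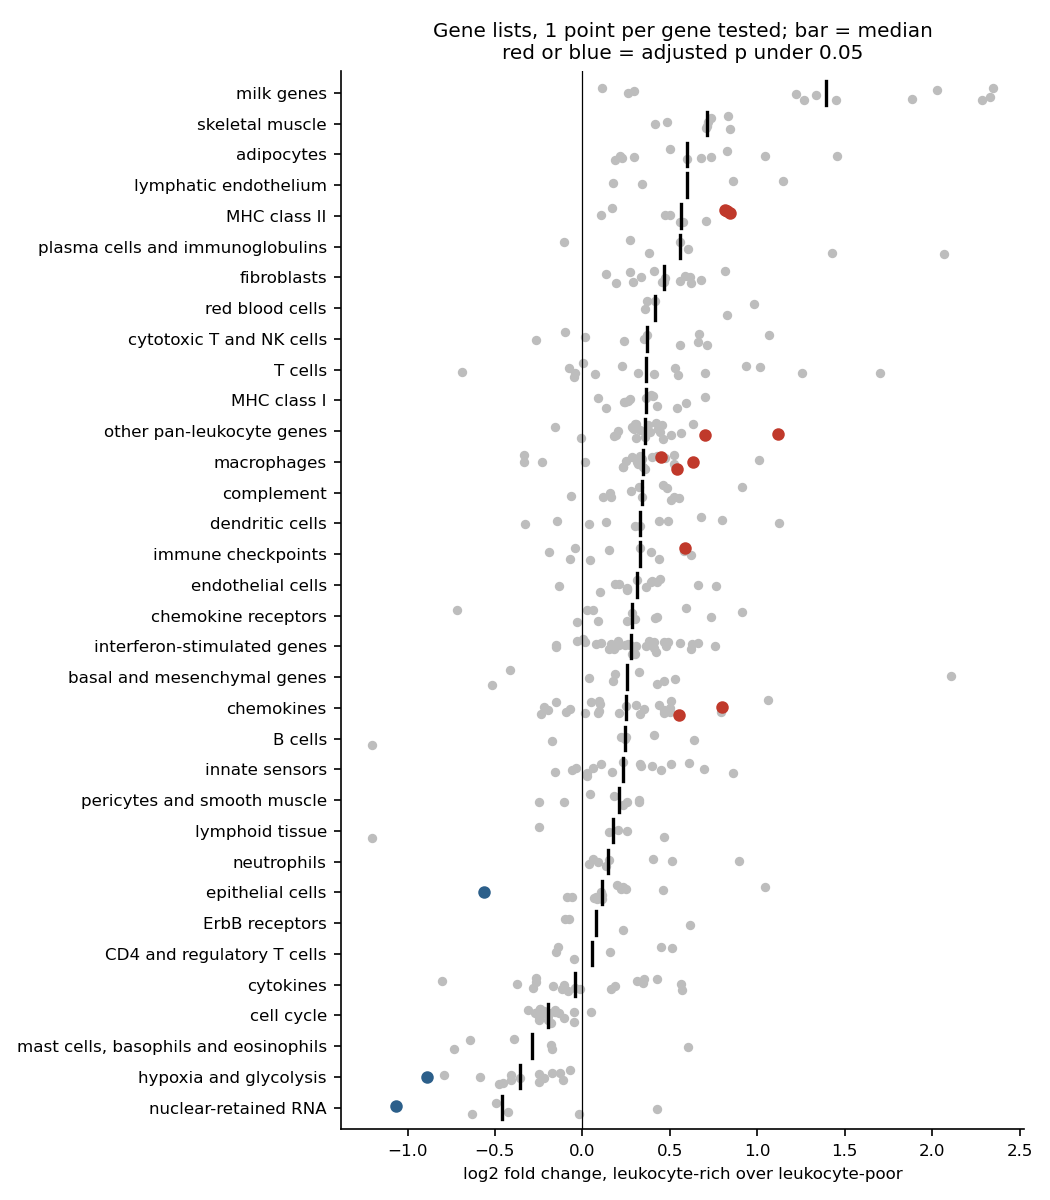
Log2 fold change of leukocyte-rich over leukocyte-poor tumors (horizontal axis) for each gene tested of 34 lists, 1 point per gene with random vertical jitter, the black bar marking the list's median, red and blue points called higher and lower at an adjusted p under 0.05. Most lists sit to the right of 0, milk genes the farthest with a median of 1.39. Hypoxia and glycolysis and nuclear-retained RNA lie farthest to the left with medians of -0.35 and -0.46. Mast cells, basophils and eosinophils (-0.29), cell cycle (-0.20) and cytokines (-0.04) also have medians below 0.

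Among the lists for other cells of the gland, Prom2 of the epithelial list was the 1 gene called, and it was lower. Prom2 does not stand for its list. Of 15 epithelial genes 12 were above 0 and 3 below, with a median log2 fold change of 0.11, and 6 had an unadjusted p under 0.05 (edgeR). All 12 milk genes were above 0 with a median log2 fold change of 1.39 and 0 were called (edgeR, 7 at an unadjusted p under 0.05). Among all genes tested, 46.9% were above 0 and 15.1% had an unadjusted p under 0.05 (edgeR). Csn2 (beta-casein) was at 359, 709.5 and 4881 CPM in the rich end and 68.4, 249 and 882 CPM in the poor end. The ends overlapped, and among the poor tumors Hi_4 alone lay above 290 CPM (adjusted p = 0.147, log2 fold change 2.33, edgeR). Csn1s1 (alpha-casein) had a log2 fold change of 2.03 (adjusted p = 0.143, edgeR). Csn3 (kappa-casein), the most abundant gene of the list, differed by 0.29 (adjusted p = 0.355, edgeR) at 8657 to 11812 CPM against 6794 to 10369 CPM. The epithelial genes Epcam and Krt8 had log2 fold changes of 0.11 and 0.08 (adjusted p = 0.666 and 0.847, edgeR), and the summed epithelial level was 5027 to 6627 CPM against 4612 to 5444 CPM. Erbb2, the mouse gene related to the driver, was at 230 ± 26.6 CPM (SD, n = 6) in the rich end and 240 ± 33.0 CPM (SD, n = 6) in the poor end (log2 fold change -0.07, adjusted p = 0.788, edgeR). Whether reads of the rat transgene were counted on it is not given in the sources used here.

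All 15 fibroblast genes were above 0 with a median of 0.47, and 0 were called (edgeR, 5 at an unadjusted p under 0.05). The shares among all genes tested, for this and the next lists, were 46.9% above 0 and 15.1% at that p. Their summed level was 1153 to 3663 CPM in the rich end and 1034 to 2407 CPM in the poor end. Col1a1, a chain of type I collagen, was at 231, 546 and 640 CPM against 229, 342 and 484 CPM, and Hi_11 was the 1 rich tumor within the range of the poor end. All 11 adipocyte genes tested were above 0 with a median of 0.60, none called (edgeR, 2 at an unadjusted p under 0.05), at 121 to 214 CPM summed against 106 to 156 CPM. Fabp4, the fatty acid carrier of fat cells, had a log2 fold change of 0.68 (adjusted p = 0.511, edgeR). Endothelial genes were above 0 in 14 of 15, with sums of 149 to 300 CPM and 127 to 302 CPM. Red blood cell genes were above 0 in 5 of 5, with sums of 37.4 to 257 CPM and 54.3 to 141 CPM. Skeletal muscle RNA was high in Lo_4 (650.5 CPM summed) and Hi_9 (190 CPM) of the rich end and in Hi_1 (376 CPM) and Lo_2 (116 CPM) of the poor end, and at 4.82 to 10.4 CPM in the others. Acta1, skeletal actin, had a log2 fold change of 0.83 with a standard error of 1.56. The part of these other cells in the differences above was not tested.

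The remaining lists gave 0 calls in either direction. Of the immune ones, 9 of 11 cytotoxic and NK, 3 of 6 CD4 and regulatory T, 6 of 7 plasma cell, 4 of 6 lymphoid tissue and 8 of 8 neutrophil genes tested were above 0. The counts were 1 of 6 for mast cells, basophils and eosinophils, 11 of 13 for chemokine receptors, 12 of 13 for complement and 14 of 17 for innate sensors. The summed chemokine receptors, at 88.6 to 110 CPM in the rich end and 62.7 to 84.6 CPM in the poor end, did not overlap. Among other tissues, 4 of 4 lymphatic endothelial, 6 of 8 pericyte and smooth muscle, 8 of 10 basal and mesenchymal and 2 of 4 ErbB receptor genes were above 0. Over all genes tested the share above 0 was 46.9%.

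**Figure D4:**
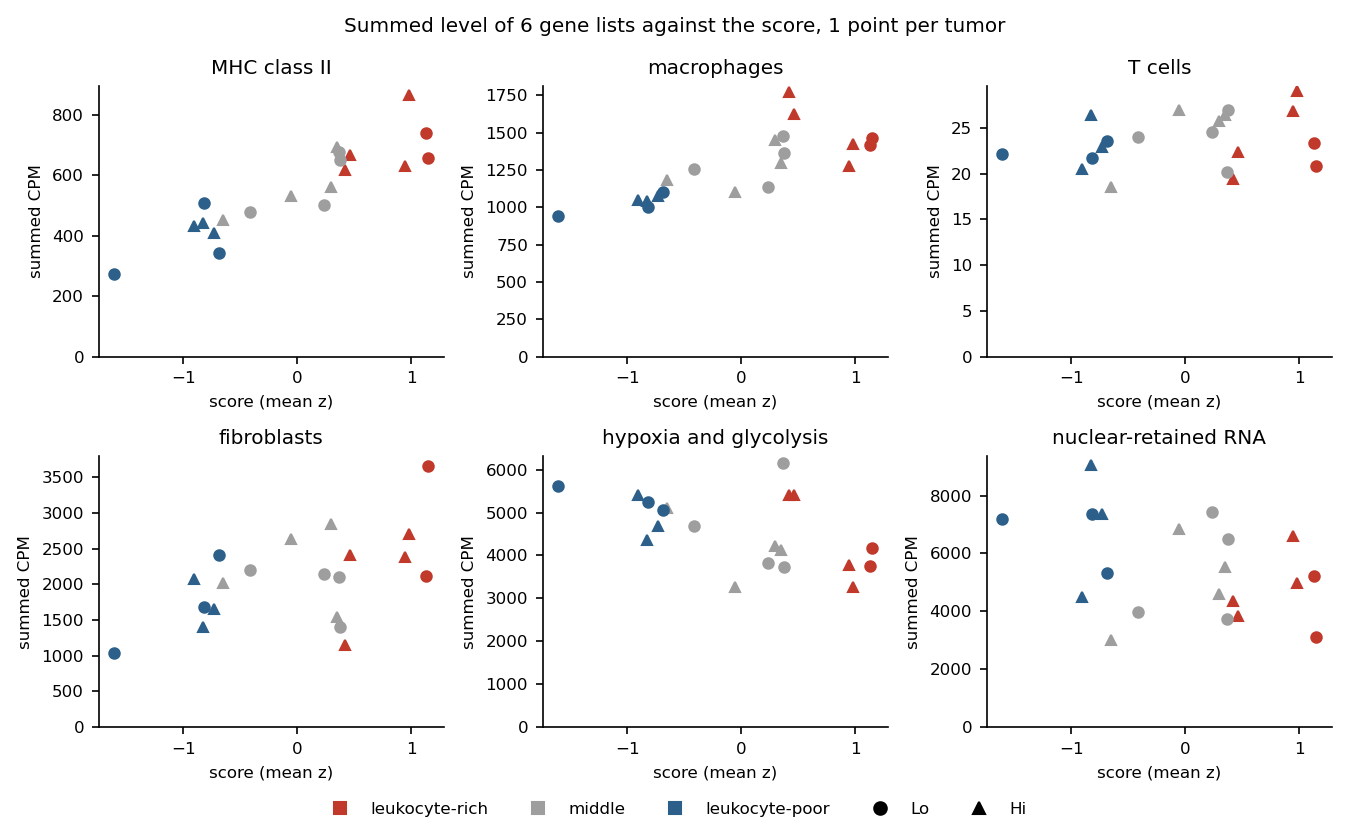
Summed CPM of 6 gene lists (vertical axes from 0) against the score (mean z-score, horizontal axes), 1 point per tumor, red for leukocyte-rich, gray for middle and blue for leukocyte-poor tumors, circles for Lo and triangles for Hi. MHC class II (617 to 866 against 274 to 509 CPM) and macrophage sums separate the ends, whereas T cell, fibroblast, hypoxia and nuclear-retained RNA sums overlap.

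Of the 12 named genes with the largest fall, 3 were in a list, 1 each of nuclear-retained RNA, hypoxia and epithelial genes. Kcnq1ot1, a noncoding antisense RNA of the imprinted Kcnq1 domain, was at 18.05, 28.5 and 40.9 CPM in the rich end and 43.5, 64.95 and 76.1 CPM in the poor end, without overlap. It fell by 1.07 ± 0.19 (SE) on the log2 scale with an adjusted p of 0.0331 (edgeR). The counting strand is not given in the sources used here, so its reads cannot be told from those of unspliced Kcnq1 on the other strand. Vegfa, the growth factor of vessels that low oxygen induces, was at 90.2, 120 and 164 CPM against 156, 225 and 296 CPM. The ends of Vegfa overlapped slightly, with Lo_2 the lowest poor tumor, and it fell by 0.89 ± 0.18 (SE) on the log2 scale with an adjusted p of 0.0441 (edgeR). Nav2 (neuron navigator 2) was at 26.4, 28.6 and 36.4 CPM against 41.7, 49.2 and 53.5 CPM, and Mcf2l, an exchange factor of small GTPases, at 102, 108 and 111 CPM against 129, 144 and 161 CPM. Neither overlapped, with log2 fold changes of -0.69 and -0.46. Prom2, a membrane protein of epithelia and the 1 called gene of the epithelial list, was at 118 to 168 CPM against 180 to 253 CPM. The others among the 12 with the largest fall were Gm21769, Gm24270, Gm26788, F930015N05Rik, Myo7a (an unconventional myosin), Cytl1 (a secreted cytokine-like protein) and Gys1 (glycogen synthase). Their log2 fold changes lay between -0.96 for Gm21769 and -0.47 for Gys1.

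All 15 genes of hypoxia and glycolysis were below 0, with a median log2 fold change of -0.35 and 7 at an unadjusted p under 0.05 (edgeR), and Vegfa was the 1 called. Among all genes tested, 15.1% had an unadjusted p under 0.05 (edgeR) and 0.111% were called lower. Their summed level was 3258 to 5416 CPM in the rich end and 4355 to 5619 CPM in the poor end. Aldoa (aldolase A) was at 1142, 1618 and 2127 CPM against 1771, 1901 and 2184 CPM, and Ldha (lactate dehydrogenase A) had a log2 fold change of -0.22 (adjusted p = 0.538, edgeR). Of 20 cell cycle genes 19 were below 0 with a median of -0.20 and 0 were called (edgeR, 1 at an unadjusted p under 0.05). Mki67 (Ki-67) was at 161 to 381 CPM in the rich and 253 to 375 CPM in the poor end. RNAs held in the nucleus, a sign of nuclear share or RNA quality, were below 0 in 5 of 6 genes, with Malat1 at 1630, 2285 and 3016 CPM against 2264, 3574 and 5137 CPM (log2 fold change -0.63, adjusted p = 0.129, edgeR). Their summed level was 3104 to 6591 CPM in the rich end and 4481 to 9049 CPM in the poor end, and its part in the lower genes was not tested.

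Chr4 had the largest difference in expression level between the ends, short of the threshold after adjustment. The authors reported loss of a copy of Chr4, or a part of it, in every F1 tumor they karyotyped. The part of cells without that loss in the Chr4 values was not tested. The dosage of a chromosome was taken as the median of its centered log2(CPM + 1) values, less that of all autosomes, with the score genes left out. For Chr4 (757 genes) it was -0.02 to 0.37 in the rich end and -0.19 to -0.01 in the poor end, so that the ends nearly separated. The means differed by 0.20 on the log2 scale (exact two-sided permutation test, 6 against 6, p = 0.00649, adjusted over 20 chromosomes p = 0.130). The other chromosomes differed by -0.06 to 0.02. Hi_5 was the high rich tumor and Lo_2 and Lo_3 the low poor ones, and Laptm5, which chose the tumors in part, lies on Chr4. The median log2 fold change of the 1160 Chr4 genes tested was 0.20, against -0.02 over all genes tested. Of the 1160 Chr4 genes, 13 were called higher (1.12%), against 65 of 17736 on other chromosomes (0.366%). The Chr4 genes were Pgd, Cdc42, Anp32b, Fkbp15, Ssbp3, Efhd2, Rnf11, Eps15, Pink1, Nipsnap3b, Lurap1l, Plin2 and 8030451A03Rik, with log2 fold changes of 0.39 for Pgd to 0.81 for 8030451A03Rik. Cdc42, a small GTPase of cell polarity, was at 186, 232 and 258 CPM against 156, 167 and 177 CPM, and Plin2, the coat protein of lipid droplets, at 123 to 246 CPM against 107 to 135 CPM. With the Chr4 dosage of each tumor as a covariate, 0 genes were called in either direction (edgeR, 1658 at an unadjusted p under 0.05). With the score taken from Ptprc, Cd53 and Coro1a alone, 120 genes were higher and 32 lower.

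**Figure D5:**
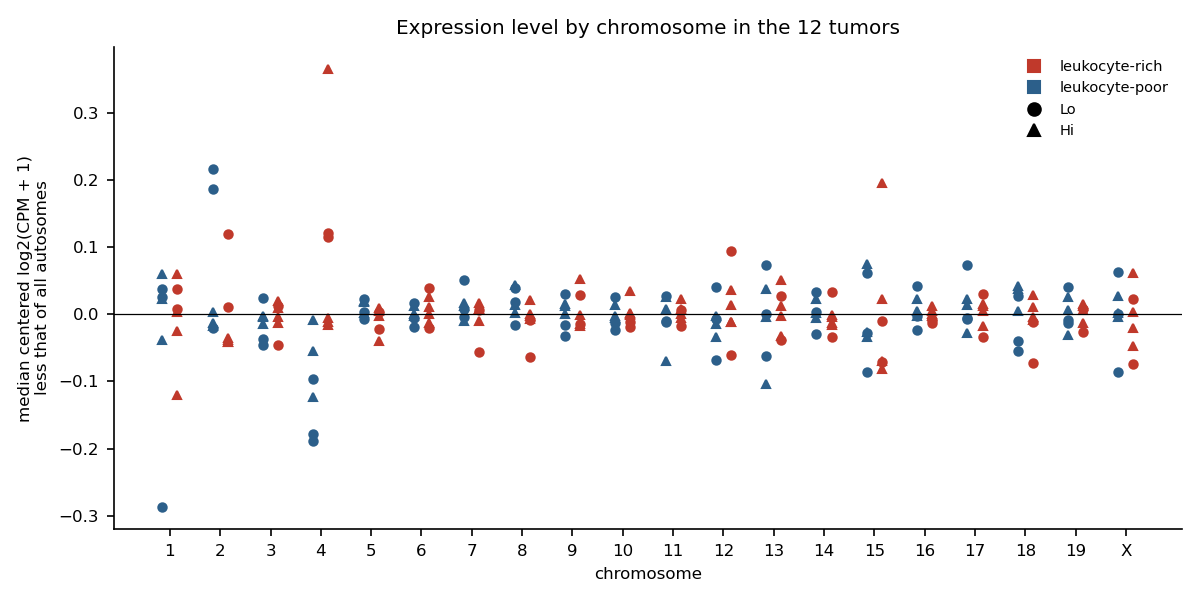
Dosage of each chromosome (vertical axis, median centered log2(CPM + 1) less that of all autosomes) in the 6 leukocyte-rich (red, right of each tick) and 6 leukocyte-poor (blue, left) tumors, circles for Lo and triangles for Hi. On Chr4 the rich tumors lie at -0.02 to 0.37 and the poor at -0.19 to -0.01, while on other chromosomes the ends are mixed.

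Leukocyte genes move with a score made of leukocyte genes, so the slopes of their lists describe it and are no separate support. The 8 middle tumors were not used to form the ends, and slopes on the same score were fitted in them. Over their score range of -0.65 to 0.38, 0 genes rose and 1 fell with the score at an adjusted p under 0.05 (edgeR's slope test, 0.00505% of 19791 genes, 1554 at an unadjusted p under 0.05, and 30 and 71 genes by DESeq2). The 1 gene was Tgm3, a transglutaminase, at 111 CPM in Hi_7 and 0.09 to 1.30 CPM in the other middle tumors, and without Hi_7 its slope went from -9.34 to -3.54 (edgeR, past the threshold no more). Of the 78 genes higher in the rich end, 71 had a positive slope in the middle tumors, with a median of 0.30 per unit of score, against 51.3% and 0.01 over all genes. Of the 20 lower genes that had a slope, 6 were negative. All 10 MHC class II genes had a positive slope, with a median of 0.47. H2-Ab1 rose by 0.62 per unit of score and H2-Eb1 by 0.61, values that did not pass the threshold over all genes (adjusted p = 0.250 and 0.360, edgeR). Of 24 macrophage genes 20 were positive with a median of 0.17. The stromal lists had the opposite sign there, with 2 of 15 fibroblast slopes and 2 of 11 adipocyte slopes above 0. Cxcl14 also turned, with a slope of -0.66 (adjusted p = 0.260, edgeR), and the 6 nuclear-retained RNAs all had positive slopes with a median of 0.53.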

How the data were processed

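Paired-end reads of 20 tumors, cut to 100 bases, were placed by the authors on mm10 (C57BL/6) with TopHat2 2.0.12, and the submitters' processing notes also name featureCounts 1.4.4. The deposited file gives whole-number counts for 43346 genes as the authors made them, not normalized, in 1 column per tumor. The strand setting and annotation release are not given in the sources used here, so overlapping genes and near-identical copies are uncertain.

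Counts were analysed here with edgeR 4.0.16 in R 4.3.3 (low counts removed by filterByExpr, TMM scaling, quasi-likelihood test, threshold 0.05 after Benjamini-Hochberg adjustment), without Yam1, AY036118 and the 4 score genes in the tests, and with DESeq2 1.42.0 as an alternative. CPM in the text is TMM-scaled, except for the score genes. RPKM used the listed gene length. Other values came from scipy 1.17.1, pandas 2.3.3 and numpy 2.4.6 under Python 3.11.15, and permutation tests enumerated all 924 splits of 6 against 6. The standard error is the log2 fold change divided by the square root of the F statistic. A count of 0 allows up to 3 counts, which covers counting error only. Dosage used genes with a mean of at least 5 CPM. The fits were tested on simulated data.

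Members and lists (35 lists, 494 of 498 genes found, 4 under another symbol) were chosen with earlier results of these data known. The rule for named genes took, per direction, the 12 largest changes past the threshold with mean log2 CPM of at least 1, in each list the 3 most abundant and up to 3 called members, lists of up to 6 genes in full, Erbb2, Yam1, AY036118 and the score genes, and only part of the list members it gives are described, chosen with their values known. The other MHC class II genes, Igfbp5, Sel1l3, Tgm3, Marco and the Chr4 genes were named after their values were seen. Allele counts are not analysed here. Alternatives are in the closing section. The result for 1 called macrophage gene is not reported here.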

Additional observations from a re-analysis of the deposited data

Results flagged for a closer look

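Within an end of 6 tumors, 18 of 194 sets of values held 1 tumor far from the other 5 (Dixon's criterion at 95%, which chance meets in about 1 in 20 sets, or 9.7 of 194). Among rich tumors, Hi_9 had a total count of 65470000 and the others at most 53550000. Hi_5 had a Chr4 dosage of 0.37 and the others -0.02 to 0.12. Vdr was at 181 CPM in Hi_8 and at most 104 in the others. Col1a1 was at 231 CPM in Hi_11 and at least 539 in the others. Lo_4 had the most skeletal muscle RNA, with Acta1 at 206 CPM and the muscle list at 650.5 CPM summed, against at most 58.9 and 190 CPM in the others.

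Among poor tumors, Lo_3 had the lowest score, -1.60, with the others at -0.91 to -0.69. Lo_3 also had the highest Gm24270 (269.8 CPM, others at most 166) and the lowest Ctss (76.5 CPM, others at least 93.7). Hi_4 stood above the others in Btbd11 (1.77 against at most 1.20 CPM), Lamb3 (32.3 against at most 16.3 CPM), Csn2 (882 against at most 290 CPM) and Csn1s1 (674.5 against at most 216 CPM). B2m was at 1395 CPM in Lo_2 and at most 583 CPM in the others. Hi_1 stood above the others in Acta1 (113 against at most 33.2 CPM), the muscle list (376 against at most 116 CPM summed), Sel1l3 (1.27 against at most 0.75 CPM) and 8030451A03Rik (8.10 against at most 5.62 CPM).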

How the results depend on the processing

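The number of genes called (78 higher and 21 lower) moved widely. It was 520 and 220 with DESeq2, 269 and 58 with all 20 tumors in 3 levels, 397 and 70 with the score as a number over 20 tumors, 145 higher without the filter on low counts, and 120 and 32 with the score without Laptm5. It fell to 30 and 6 with Lo or Hi as a covariate, 5 and 0 with 5 tumors per end, 3 and 0 with the score from TMM-scaled CPM, 1 and 1 with Yam1 and AY036118 kept, and 0 and 0 with tumors ranked by the other pan-leukocyte genes or with the Chr4 dosage as a covariate, and 4 were lower with 8 tumors per end. Leaving out 1 tumor gave 11 (without Hi_10) to 151 (without Hi_9) higher and 2 (without Lo_4 or Hi_10) to 36 (without Hi_9) lower genes. With the number in the tumor name as a replicate block, over 3 shared numbers, 0 and 0 genes were called. At an unadjusted p under 0.05 there were 1103 genes (edgeR). The deviations of same-numbered tumors correlated at -0.22 to -0.05, and each tumor came from its own mouse. The meaning of the numbers was not given in the sources used here, and 3 pairs cannot tell whether they mark something shared. In the middle tumors, 30 genes rose and 71 fell with DESeq2, 2 fell without the filter on low counts, 0 fell with a mean CPM of at least 1 or with Lo or Hi as a covariate, and 0 to 7 fell without 1 tumor. The cause of these shifts was not tested.

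Single genes were steadier in direction than the number of calls. This is a description, since the alternatives mostly refit the tumors that gave the calls. The 49 called genes described kept their sign in all 1323 values under alternatives, 675 of them past the threshold no more, and each was called in 4 to 23 of 27 alternatives (Bhlhe41 in 23). Reversals occurred among genes that were not called: Lcp1 (0.14 with the replicate block, 0.11 with Chr4 dosage), H2-DMb2 (-0.0086 with Chr4 dosage), Cd247 (0.014 with 8 tumors per end, 0.079 by the other pan-leukocyte genes, 0.0020 without Laptm5 in the score, and -0.14 to 0.0074 without 1 tumor), Foxp3 (0.099 with the locus kept, and -0.11 to 0.043 without 1 tumor), Gzmb (-0.20 to 0.99 without 1 tumor, -0.83 with Chr4 dosage), Erbb2 (0.012 by the other pan-leukocyte genes), Epcam (-0.018 without Laptm5), Krt8 (-0.052 with the locus kept, -0.11 without Laptm5, and -0.0045 to 0.14 without 1 tumor), Aldoa and Ldha (0.10 and 0.14 with Chr4 dosage) and Acta1 (-0.82 with the replicate block, -1.01 to 2.66 without 1 tumor). The difference in total count turned from 1729620 to -880600 with 5 tumors per end. The score without Laptm5 and the Chr4 covariate were chosen after seeing the data.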
